A study of Homo sapiens with 12 samples.

Results

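The 10 genes AURKA, AURKB, PLK1, NEK2, BUB1, BUB1B, TTK, MAD2L1, CDC20 and PTTG1, which encode mitotic kinases and the proteins that delay and then trigger anaphase, were followed through cells treated with the small molecules ICG-001 and C646. They were taken by name as 10 of the 34687 rows of the expression table, and each name matched 1 row. In the human genome the genes are spread over chromosomes 20 (AURKA), 17 (AURKB), 16 (PLK1), 1 (NEK2 and CDC20), 2 (BUB1), 15 (BUB1B), 6 (TTK), 4 (MAD2L1) and 5 (PTTG1). RNA came from HCT116, a human colorectal cancer cell line, and PANC1, a human pancreatic adenocarcinoma cell line. Each line received 0.05% DMSO (the solvent, used as control), 10 uM ICG-001, which binds the histone acetyltransferase CBP, or 10 uM C646, which inhibits the acetyltransferase activity of CBP and its relative p300, and was collected at 12 or 96 h. Expression was measured on Illumina HumanHT-12 v4 arrays, which read the brightness of labeled RNA bound to probes on beads.

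The table holds 12 columns of signal intensity, 1 for each line under each treatment at each time, which the authors had averaged over 2 arrays, or over 3 arrays for PANC1 with ICG-001 at 12 h. Because the values of the single arrays were not used here, the spread between replicates is unknown. All differences below are sizes measured between 2 columns with no replicate check, and no test was run. The 12 h cultures were denser when the compounds were added, and the 96 h cultures were passaged during treatment, so time and culture history cannot be told apart. In these bulk samples, fewer cells in G2 and mitosis and less RNA per such cell cannot be told apart either. The lines appear to have been normalized separately, so signals were compared within a line, and lines were set side by side through their ratios. The epithelial markers EPCAM, CDH1, KRT8, KRT18 and KRT19 were above the detection limit in all columns of both lines. Of 7 intestinal markers, only CDX2 was above it in every HCT116 column, and CDX2 was above it in PANC1 as well, so this list did not set the colon line apart. The leukocyte and endothelial markers were at background in both. Of 2 fibroblast markers, COL1A1 was above the limit in every column of both lines.

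As cells enter mitosis, Aurora and Polo kinases mature the centrosomes, build the spindle and correct faulty attachments of chromosomes to it. The spindle checkpoint senses kinetochores without attached microtubules: TTK, BUB1 and BUB1B work at the kinetochore, and MAD2L1 with BUB1B holds back CDC20, the activator of the anaphase-promoting complex (APC/C). Once the checkpoint is silent, CDC20 and the APC/C mark securin (PTTG1) and cyclin B for destruction, separase is freed and the sister chromatids part. Transcription of most of these genes peaks in G2 and mitosis, through promoters that often hold CCAAT boxes, bound by the factor NF-Y, and a cell cycle genes homology region (CHR), bound by the DREAM and MuvB complexes.

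Promoter sequence was given for 8 of the 10 genes (not for AURKA and TTK), in windows from 250 bases before to 50 bases after each RefSeq start site of the build GRCh38.p14. Stretches of 100 bases that end just before the start are shown, because these genes moved differently: BUB1, NEK2 and BUB1B were lower with ICG-001, and PLK1 and CDC20 were higher with C646. Capitals mark the CHR letters TTTGAA and the CCAAT box, written ATTGG where it lies on the other strand. The stretches are chr2:110678064-110678163 on the minus strand for BUB1, chr1:211675622-211675721 on the minus strand for NEK2, chr15:40160969-40161068 on the plus strand for BUB1B, chr16:23678789-23678888 on the plus strand for PLK1 and chr1:43358881-43358980 on the plus strand for CDC20.
BUB1: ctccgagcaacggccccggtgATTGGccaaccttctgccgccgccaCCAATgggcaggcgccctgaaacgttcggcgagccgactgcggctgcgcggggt
NEK2: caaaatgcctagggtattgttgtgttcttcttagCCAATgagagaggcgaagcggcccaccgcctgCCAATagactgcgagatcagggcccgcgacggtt
BUB1B: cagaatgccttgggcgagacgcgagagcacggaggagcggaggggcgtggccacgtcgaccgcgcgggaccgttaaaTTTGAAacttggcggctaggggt
PLK1: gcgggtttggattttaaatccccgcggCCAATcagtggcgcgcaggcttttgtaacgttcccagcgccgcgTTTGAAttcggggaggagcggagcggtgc
CDC20: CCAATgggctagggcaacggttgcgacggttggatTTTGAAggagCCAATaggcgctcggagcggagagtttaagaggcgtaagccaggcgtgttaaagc

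BUB1 and NEK2 each had 2 CCAAT boxes in these stretches and no CHR letters, BUB1B had CHR letters without a CCAAT box, and PLK1 and CDC20 had both. The CHR letters began 29 bases before the start in PLK1, 23 in BUB1B and 65 in CDC20. Over the whole windows and both strands, TTTGAA was found in 4 of the 8 genes (PLK1, BUB1B, MAD2L1 and CDC20), against 15.16% of the 35116 promoter windows in the table. CCAAT was found in 7 of the 8 (all but BUB1B), against 34.61%. None of 4 spellings of the E2F element, TTTGGCGC, TTTCGCGC, TTTCCCGC and TTTGCCGC, was found in any of the 8, against 3.315% of all windows. These are matches of letters, and the CHR letters stood in genes that were lower with ICG-001 (BUB1B) as well as in genes that were higher with C646 (PLK1, CDC20).

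All 10 genes were above the detection limit in all 12 columns, the limit being the upper edge of the background signal (145 in HCT116 and 136 to 139 in PANC1). They were sorted into 3 groups by direction against DMSO of the same time. Of 80 such ratios, 17 changed sign against the DMSO column of the other time. BUB1, TTK, NEK2, AURKA, BUB1B and PTTG1 were lower with ICG-001 in 4 of 4 comparisons with DMSO. PLK1 and CDC20 were higher with C646 in 4 of 4. The groups overlapped: BUB1 and NEK2 were also lower with C646 in 4 of 4, and CDC20 was higher with ICG-001 in 3 of 4. How many of all genes kept the same direction in 4 of 4 was not counted. AURKB and MAD2L1 were in neither group: no ratio of either to DMSO of the same time reached 1.5-fold. MAD2L1 was lower at 96 than at 12 h under every treatment in both lines. Against the 12 h DMSO column, MAD2L1 at 96 h of ICG-001 in HCT116 was at -0.85. Across the 6 HCT116 columns, the lowest signal of every one of the 10 genes was in the ICG-001 96 h column, which was the lowest column for 18.7% of the genes above the limit in that line. In PANC1, it was the lowest column for 7 of the 10 genes and for 23.5% of genes.

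**Figure D1:**
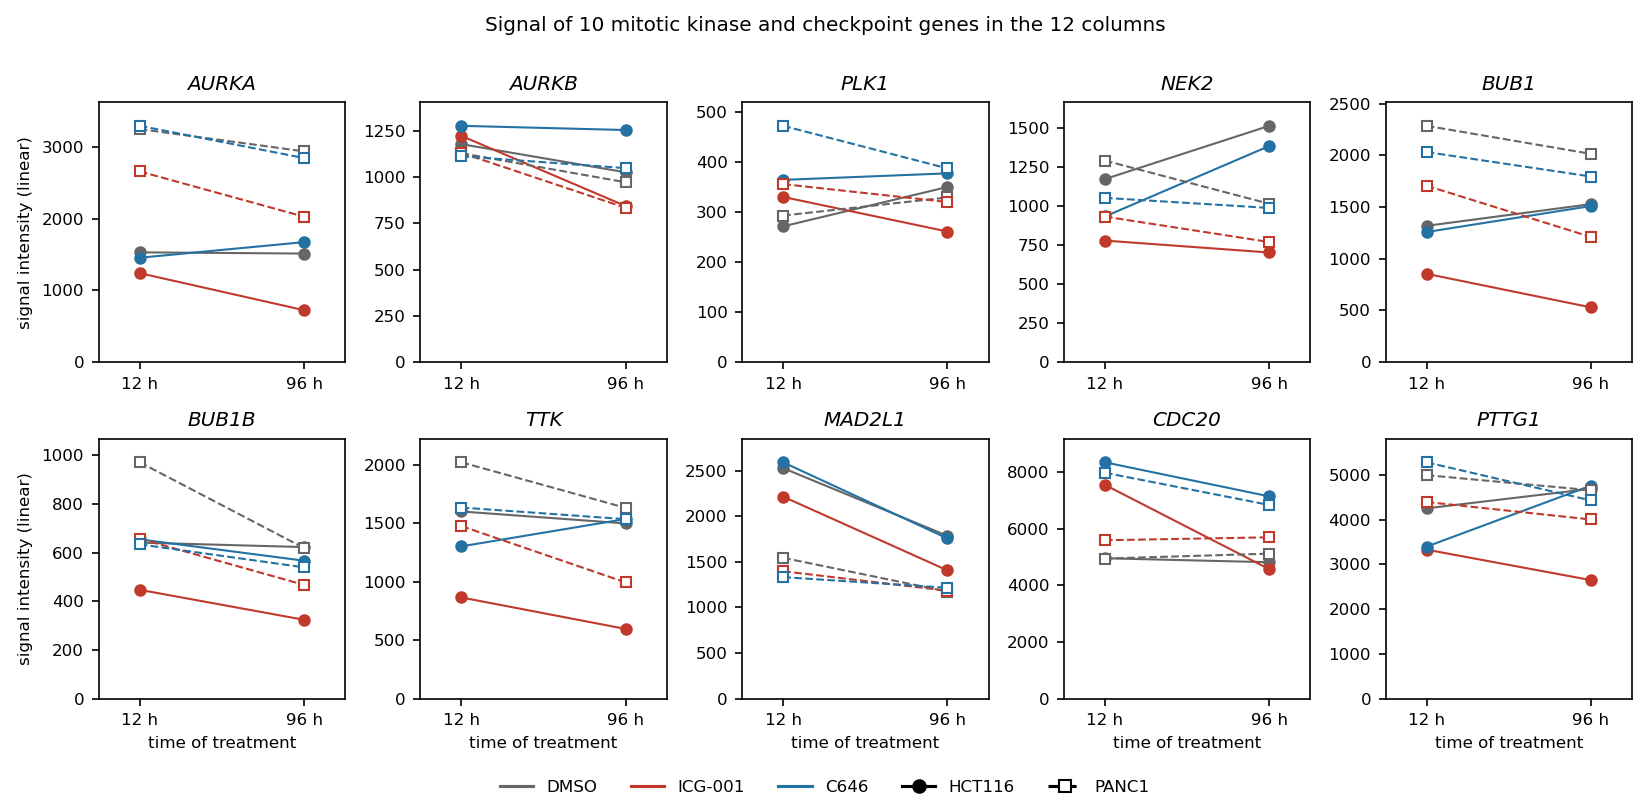
Signal intensity (linear axis from 0) of each gene at 12 and 96 h with DMSO (grey), ICG-001 (red) and C646 (blue), with filled circles and solid lines for HCT116 and open squares and dashed lines for PANC1; every point is 1 column, the authors' mean of 2 or 3 arrays, with no error known, and heights are to be compared only within a gene and a line. The red lines of BUB1, TTK, NEK2, AURKA and PTTG1 lie below the grey and blue lines of the same cell line at both times, whereas the blue points of PLK1 and CDC20 lie above the grey ones.

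The Aurora kinases differed in the size of their ratios. AURKA acts at centrosomes and spindle poles. In HCT116, AURKA read 1532 and 1515 with DMSO at 12 and 96 h, against 1242 and 725 under ICG-001 and 1457 and 1675 under C646. The 96 h ICG-001 column stood apart from the other 5, at 2.09-fold under its DMSO column (log2 ratio -1.06). In PANC1, AURKA read 3253 and 2942 with DMSO, against 2661 and 2030 under ICG-001 and 3298 and 2848 under C646. Both ICG-001 columns were again the lowest pair, but the 96 h log2 ratio was -0.54. AURKB, the kinase of the chromosomal passenger complex that corrects attachments at centromeres, was nearly level at 12 h. In HCT116, AURKB read 1179 and 1027 with DMSO, against 1223 and 844 under ICG-001 and 1278 and 1255 under C646. In PANC1, AURKB read 1130 and 973 with DMSO, against 1132 and 834 under ICG-001 and 1113 and 1049 under C646. Its log2 ratios at 96 h of ICG-001 were -0.28 and -0.22, close to the -0.20 and -0.22 that separated the DMSO columns of 96 and 12 h.

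PLK1, the Polo kinase of mitotic entry and spindle assembly, was the dimmest of the 10 probes relative to background, at 1.80 to 2.61 times the limit in HCT116. In HCT116, PLK1 read 271 and 350 with DMSO, against 330 and 261 under ICG-001 and 364 and 377 under C646. In PANC1, PLK1 read 293 and 329 with DMSO, against 355 and 320 under ICG-001 and 472 and 387 under C646. The C646 columns were the 2 highest in each line. Its largest ratio was 1.61-fold higher with C646 at 12 h in PANC1 (log2 0.69). Background was left in these signals, so ratios of a dim probe understate the change: with background corrected by the normexp method, that ratio was 0.89, and the HCT116 ratio at 96 h of ICG-001 was -0.62 instead of -0.42. With ICG-001, PLK1 was above DMSO at 12 h in both lines (0.28 and 0.28) and under it at 96 h, but these values rest on the control column. In HCT116, where PLK1 was 0.37 higher in the 96 h than in the 12 h DMSO column, the other control gave -0.08 at 12 h of ICG-001, -0.06 at 96 h and 0.06 instead of 0.42 at 12 h of C646. In PANC1, the other control gave 0.11 at 12 h of ICG-001 and 0.13 at 96 h. NEK2, which separates the centrosomes before mitosis, was lower with both drugs in 4 of 4 comparisons with DMSO of the same time, by less with C646 in each. At 96 h of C646 its ratios were small, -0.13 in HCT116 and -0.04 in PANC1. Against the mean of both DMSO columns they were 0.06 and -0.21. In HCT116, NEK2 read 1175 and 1517 with DMSO, against 780 and 704 under ICG-001 and 935 and 1387 under C646. In PANC1, NEK2 read 1294 and 1016 with DMSO, against 934 and 771 under ICG-001 and 1054 and 990 under C646. At 96 h of ICG-001 it was 2.16-fold lower in HCT116 (log2 -1.11) and at -0.40 in PANC1. The size of the HCT116 ratio depended on the control column, which was higher at 96 than at 12 h (0.37): against the 12 h DMSO column the ratio was -0.74.

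Among the checkpoint genes, BUB1 and TTK had the largest differences of the 10. BUB1 is the kinase that marks centromeres and recruits other checkpoint proteins. In HCT116, BUB1 read 1318 and 1528 with DMSO, against 854 and 529 under ICG-001 and 1258 and 1510 under C646. At 96 h of ICG-001 it was 2.89-fold lower (log2 -1.53), and of 16531 genes above the limit only 33 had a lower ratio. In PANC1, BUB1 read 2285 and 2014 with DMSO, against 1706 and 1210 under ICG-001 and 2031 and 1795 under C646. There, the 96 h signal was 1.66-fold under DMSO (-0.73). TTK (MPS1) is the kinase at the head of the checkpoint. In HCT116, TTK read 1600 and 1497 with DMSO, against 864 and 595 under ICG-001 and 1301 and 1535 under C646. It was the gene of the 10 with the lowest ratio at 12 h of ICG-001 (-0.89, 1.85-fold) and was 2.52-fold lower at 96 h (-1.33). In PANC1, TTK read 2020 and 1630 with DMSO, against 1474 and 993 under ICG-001 and 1633 and 1534 under C646. The ratios to DMSO were -0.45 at 12 h and -0.72 at 96 h.

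BUB1B (BUBR1) binds and holds back CDC20. In HCT116, BUB1B read 641 and 623 with DMSO, against 447 and 324 under ICG-001 and 655 and 567 under C646. It was 1.92-fold lower at 96 h of ICG-001 (-0.94). In PANC1, BUB1B read 972 and 619 with DMSO, against 657 and 468 under ICG-001 and 634 and 540 under C646. The 12 h DMSO column stood above all others, and the PANC1 ratios at 12 h rest on it: C646 was at -0.62 against this column and at 0.03 against the 96 h DMSO column, and ICG-001 was at -0.56 and 0.09. MAD2L1 (MAD2), which closes around CDC20 when a kinetochore is unattached, moved with time. In HCT116, MAD2L1 read 2528 and 1786 with DMSO, against 2215 and 1407 under ICG-001 and 2592 and 1757 under C646. From 12 to 96 h its log2 difference was -0.50 with DMSO, -0.66 with ICG-001 and -0.56 with C646. Each was larger than any ratio of a drug to DMSO of the same time (-0.34 to 0.04). In PANC1, MAD2L1 read 1544 and 1174 with DMSO, against 1397 and 1183 under ICG-001 and 1332 and 1216 under C646. The time differences there were -0.40, -0.24 and -0.13.

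Of the genes of anaphase, CDC20 was higher with C646 in every comparison. In HCT116, CDC20 read 4954 and 4814 with DMSO, against 7545 and 4569 under ICG-001 and 8341 and 7139 under C646. In PANC1, CDC20 read 4943 and 5116 with DMSO, against 5589 and 5694 under ICG-001 and 7973 and 6835 under C646. At 12 h of C646 it was 1.68-fold higher in HCT116 (log2 0.75) and 1.61-fold higher in PANC1 (0.69), and at 96 h the ratios were 0.57 and 0.42. ICG-001 gave a 12 h ratio of 0.61 in HCT116 (1.52-fold), which became 0.52 when all 12 columns were quantile normalized together, and at 96 h the HCT116 signal was back near DMSO (-0.08). In PANC1, the ICG-001 ratios were 0.18 and 0.15. PTTG1 encodes securin, which CDC20 targets. In HCT116, PTTG1 read 4256 and 4692 with DMSO, against 3331 and 2650 under ICG-001 and 3399 and 4764 under C646. In PANC1, PTTG1 read 4997 and 4660 with DMSO, against 4397 and 4006 under ICG-001 and 5285 and 4432 under C646. It was 1.77-fold lower in HCT116 at 96 h of ICG-001 (-0.82) and at -0.22 in PANC1. The row of its processed copy PTTG3P, whose sequence is nearly the same, was at -1.05 and -0.59, so the shares of the 2 genes in either signal cannot be told apart. A further copy, PTTG2, was above the limit in 2 of the 6 HCT116 columns and in none of PANC1.

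Against DMSO, the 10 genes had a median log2 ratio of -0.33 after 12 h and -0.88 after 96 h of ICG-001 for HCT116. The PANC1 medians with this drug were -0.24 and -0.31. C646 gave medians of -0.02 and 0.03 for HCT116 and of -0.10 and -0.04 for PANC1. The median of all genes above the limit lay within 0.015 of 0 in each of these comparisons. At least 1.5-fold lower with ICG-001 in HCT116 were 3 of the 10 at 12 h (NEK2, BUB1 and TTK; 4.3% of all genes above the limit) and 6 of the 10 at 96 h (AURKA, NEK2, BUB1, BUB1B, TTK and PTTG1; 5.29%). At least 1.5-fold higher were 1 gene at 12 h (CDC20; 4.99%) and none at 96 h (5.31%). With C646 in HCT116, none of the 10 was lower (1.6% of genes at 12 h and 1.26% at 96 h), and CDC20 was higher at 12 h (2.71%), with none higher at 96 h (1.95%).

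In PANC1, none of the 10 was at least 1.5-fold lower with ICG-001 at 12 h (0.347% of genes) and none higher (2.25%). At 96 h, BUB1 and TTK were lower (3.68%) and none was higher (3.98%). With C646 at 12 h, BUB1B was lower (2.79%) and PLK1 and CDC20 were higher (4.13%), and at 96 h no gene of the 10 was past 1.5-fold in either direction (1.22% lower and 2.89% higher over all genes). The PANC1 median at 12 h of ICG-001 was 0.00 when the 96 h DMSO column was the control, and the 96 h median was -0.56 against the 12 h DMSO column. The size of the PANC1 differences thus depended on the choice of control column. The genes' own distance between the DMSO columns gives a yardstick for this. In HCT116, the ICG-001 ratio was larger than that distance for 7 genes at 12 h (61.3% of all genes) and for 9 at 96 h (63%), and the C646 ratio for 5 (53%) and 4 (50.3%). In PANC1, the ICG-001 ratio was larger for 7 genes at 12 h (54.1% of all genes) and 7 at 96 h (64%), and the C646 ratio only for PLK1 and CDC20 at either time (65.9% and 58.2%). These counts were furthest from the shares of all genes in HCT116 at 96 h of ICG-001, where more of the 10 passed, and in PANC1 with C646, where fewer did.

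**Figure D2:**
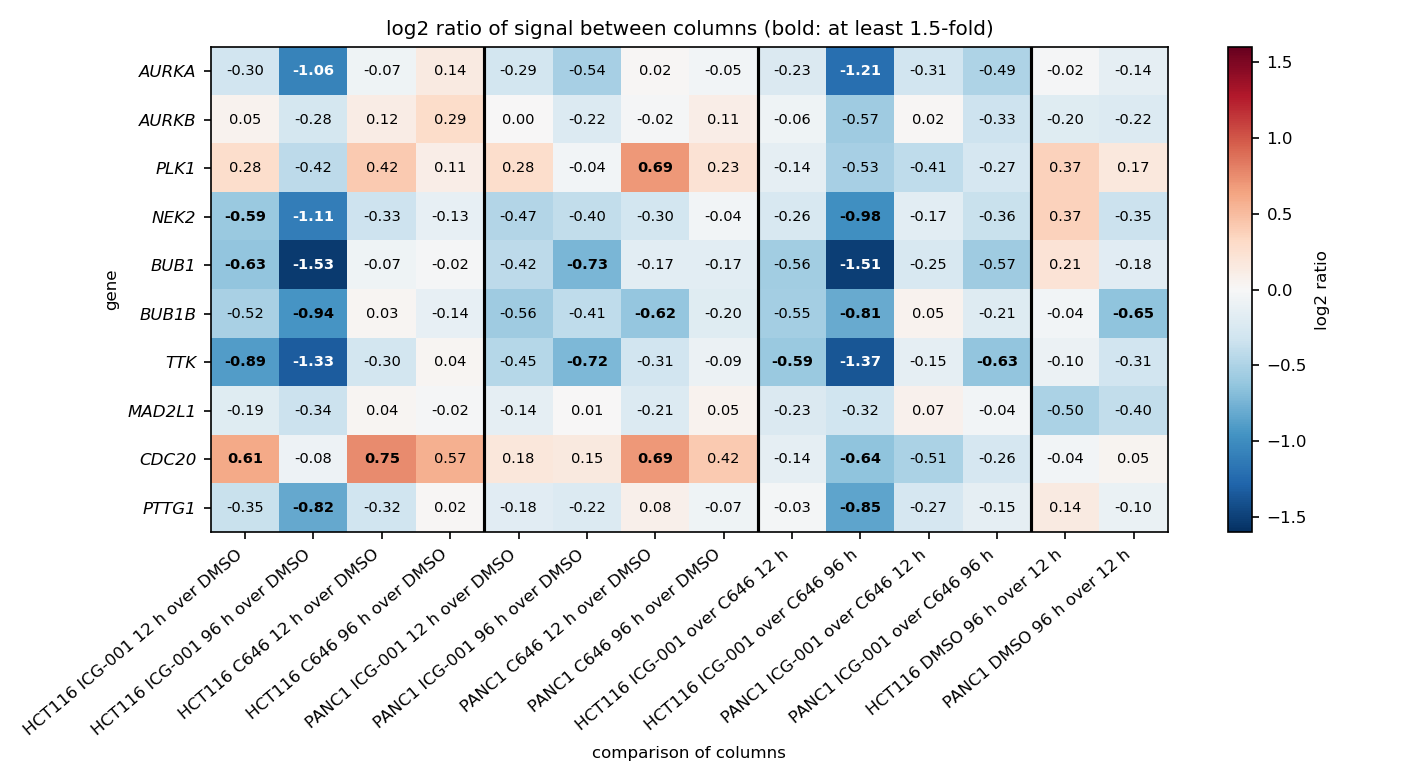
Heat map of log2 ratios of signal, with the 10 genes in rows and 14 comparisons of columns: ICG-001 and C646 over DMSO in HCT116 and PANC1, ICG-001 over C646, and DMSO at 96 over 12 h; blue is lower and red is higher, bold marks a ratio of at least 1.5-fold, and no error is known. The column of HCT116 with ICG-001 at 96 h over DMSO is blue throughout, from -1.53 for BUB1 to -0.08 for CDC20, and the C646 ratios of CDC20 and PLK1 are red in both lines.

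The 2 drugs were also compared at the same dose and time, which leaves the DMSO columns out. In HCT116 at 96 h, all 10 genes were lower with ICG-001 than with C646, with a median log2 ratio of -0.83, and 7 of them at least 1.5-fold lower (3.38% of genes): the 6 named above and CDC20, at -0.64. At 12 h, all 10 were again lower with ICG-001, with a median of -0.23, and 1 (TTK) was past 1.5-fold (2.93% of genes). In PANC1 the median was -0.21 at 12 h, with none past 1.5-fold (0.96% of genes), and -0.30 at 96 h, when all 10 were lower and TTK was past 1.5-fold (3.6% of genes). No gene of the 10 was 1.5-fold higher with ICG-001 than with C646. How far the ICG-001 columns lay from all others of a line was counted as well. Both ICG-001 columns were under the other 4 for 6 genes in HCT116 (AURKA, NEK2, BUB1, BUB1B, TTK and PTTG1; 11.3% of genes) and for 5 in PANC1 (the same without BUB1B; 8.71%). Both C646 columns were above the other 4 for AURKB and PLK1 in HCT116 (6.73%) and for PLK1 and CDC20 in PANC1 (13.3%).

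Over time in DMSO, no gene of the 10 was at least 1.5-fold lower at 96 than at 12 h in HCT116 (1.61% of genes), and BUB1B was in PANC1 (0.339%). The median difference was -0.03 for HCT116 and -0.20 for PANC1. With ICG-001 in HCT116, all 10 genes were lower at 96 than at 12 h, with a median of -0.54, and 4 were at least 1.5-fold lower (2.87% of genes). Those 4 were AURKA (-0.78), CDC20 (-0.72), BUB1 (-0.69) and MAD2L1 (-0.66). With C646 in the same line, the median over time was 0.13. In PANC1, the medians over time were -0.33 with ICG-001 and -0.20 with C646.

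Against DMSO of the same time, HCT116 had the lower ratio at 96 h of ICG-001 for all 10 genes. The difference between the lines was largest for BUB1 (-0.79 on the log2 scale), NEK2 (-0.71), TTK (-0.62) and PTTG1 (-0.61) and smallest for AURKB (-0.06), and it was not tested. It depended on the control column. Against the 12 h DMSO columns, BUB1 was at -1.32 in HCT116 and -0.92 in PANC1, but NEK2 was at -0.74 and -0.75. BUB1B was then lower in PANC1 (2.08-fold) than in HCT116 (log2 -0.99). At 12 h of ICG-001, AURKA was at -0.30 in HCT116 and -0.29 in PANC1, whereas TTK was lower by 0.43 in HCT116 and CDC20 higher by 0.43. CDKN1A, which encodes the CDK inhibitor p21, was read beside these genes. In HCT116, CDKN1A read 1864 and 1968 with DMSO, against 3890 and 4269 under ICG-001 and 2042 and 5072 under C646. In PANC1, CDKN1A read 551 and 857 with DMSO, against 651 and 928 under ICG-001 and 1006 and 1007 under C646. In HCT116 at 96 h, CDKN1A was at 1.12 with ICG-001 and 1.37 with C646, and the medians of the 10 genes were -0.88 and 0.03. In PANC1 at 96 h of ICG-001, CDKN1A was at 0.12. A link between CDKN1A and the 10 genes was not tested.

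The partners of the 10 genes differed among themselves. TPX2, which activates Aurora A on the spindle, was at -0.91 in HCT116 and -0.84 in PANC1 at 96 h of ICG-001, and BORA, which helps Aurora A activate PLK1, at -0.73 and -0.59. This made 2 of 3 Aurora A partners at least 1.5-fold lower in each line, against 5.29% of all genes in HCT116 and 3.68% in PANC1. The third, AJUBA (row named JUB), was at 0.28 and 0.15 from a row that was also dim (149 to 183 in HCT116). TPX2 was also low with C646 in PANC1 (-0.95 at 12 h and -0.52 at 96 h), where AURKA was at 0.02 and -0.05. The 12 h value of TPX2 rests on its control, as its DMSO columns there differed by -0.64 from 12 to 96 h. Of AURKB's partners in the passenger complex, INCENP, its scaffold, was at -0.64 and -0.63 at 96 h of ICG-001, and borealin (CDCA8) at -0.39 and -0.46, so that 1 of 3 was past 1.5-fold in each line. Survivin (BIRC5) was at 0.04 and 0.12, and at 0.34 and 0.32 with C646 at 96 h. BUB3, which carries BUB1 and BUB1B to kinetochores, was at 0.27 and 0.10 at 96 h of ICG-001, whereas both of its partners were under DMSO. This contrast rests on the 96 h control, as the DMSO columns of BUB3 differed by more from 12 to 96 h (-0.39 and -0.19). MAD1L1, the partner of MAD2L1, was at 0.07 and -0.21 from a dim row (signals from 146 to 168 in HCT116, and in PANC1 from 169 to 198). FZR1, which activates the APC/C after CDC20, was above the limit in 3 of the 6 columns of each line and was at 0.13 and -0.02. ESPL1 (separase), which PTTG1 holds back, was at -0.42 in both lines.

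By list, the mitotic entry genes above the limit included cyclins A and B, CDK1 and the CDC25 phosphatases. At 96 h of ICG-001, 2 of 11 were at least 1.5-fold lower in HCT116 (5.29% of all genes) and 3 of 12 in PANC1 (3.68%). Their medians were -0.29 and -0.35. The lowest were CCNB2 (-0.94) in HCT116 and CCNB1 (-0.97) in PANC1, both B-type cyclins that bind CDK1, and the highest were CDC25A (0.26) and WEE1 (0.57). Of 25 kinetochore and other checkpoint proteins, 4 and 6 were at least 1.5-fold lower, with medians of -0.15 and -0.22. NUF2 (-1.02) in HCT116 and SPC25 (-0.91) in PANC1, both subunits of the NDC80 complex that grips microtubules, were the lowest, and MIS12 (0.55) and ZWILCH (0.38) the highest. Other mitotic kinases had none of 9 and none of 7 past 1.5-fold, with medians of -0.22 and -0.12, from PLK4 (-0.57) to PLK3 (0.25) in HCT116 and from NEK6 (-0.44) to PLK2 (0.36) in PANC1.

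The core subunits of the APC/C, the ligase that CDC20 activates, included none of 13 that were 1.5-fold lower in either line, and their medians were 0.01 and 0.09. They ranged from -0.50 and -0.55 for the row named C11orf51 to 0.60 for CDC16 in HCT116 and 0.48 for the row named C10orf104 in PANC1. The APC/C regulators and E2 enzymes had none of 3 and none of 4, with UBE2C (-0.47) and FBXO5 (-0.47) the lowest and FZR1 (0.13) and UBE2S (0.06) the highest, the latter from a row above the limit in 2 of the 6 PANC1 columns and in none of HCT116. Separase and cohesin genes had 1 of 8 in HCT116, the cohesin subunit RAD21 (-0.63), and none of 8 in PANC1, where RAD21 was again lowest (-0.58). Their highest were STAG1 (0.13) and WAPAL (0.14). Taking these 81 mitotic genes as 1 list, 10 of 75 above the limit (13.3%) were at least 1.5-fold lower in HCT116 at 96 h of ICG-001 and 12 of 75 (16%) in PANC1, with medians of -0.15 and -0.13. Over all genes above the limit, the shares were 5.29% and 3.68%.

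G1/S genes, which code for replication and licensing factors, gave a different order. In HCT116, 7 of 14 were at least 1.5-fold lower at 12 h of ICG-001 (4.3% of all genes), with a median of -0.53. At 96 h, 1 of 14 was (5.29% of all genes), with a median of 0.05. There, TYMS (-0.59) was lowest and CCNE2 (0.93) highest. The G1/S genes also differed between the DMSO columns in HCT116, with 10 of 14 at least 1.5-fold lower at 96 than at 12 h (1.61% of all genes). Their median there was -0.95, compared with -0.03 for the 10 mitotic genes. In PANC1 at 96 h of ICG-001, 5 of 14 were lower (3.68% of all genes), and the list ran from MCM5 (-1.13) to MCM7 (0.27). Of the proliferation markers, TOP2A, a topoisomerase made in S phase and G2, was at -0.72 and -0.68, and the dim MKI67 row at -0.16 and -0.24.

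**Figure D3:**
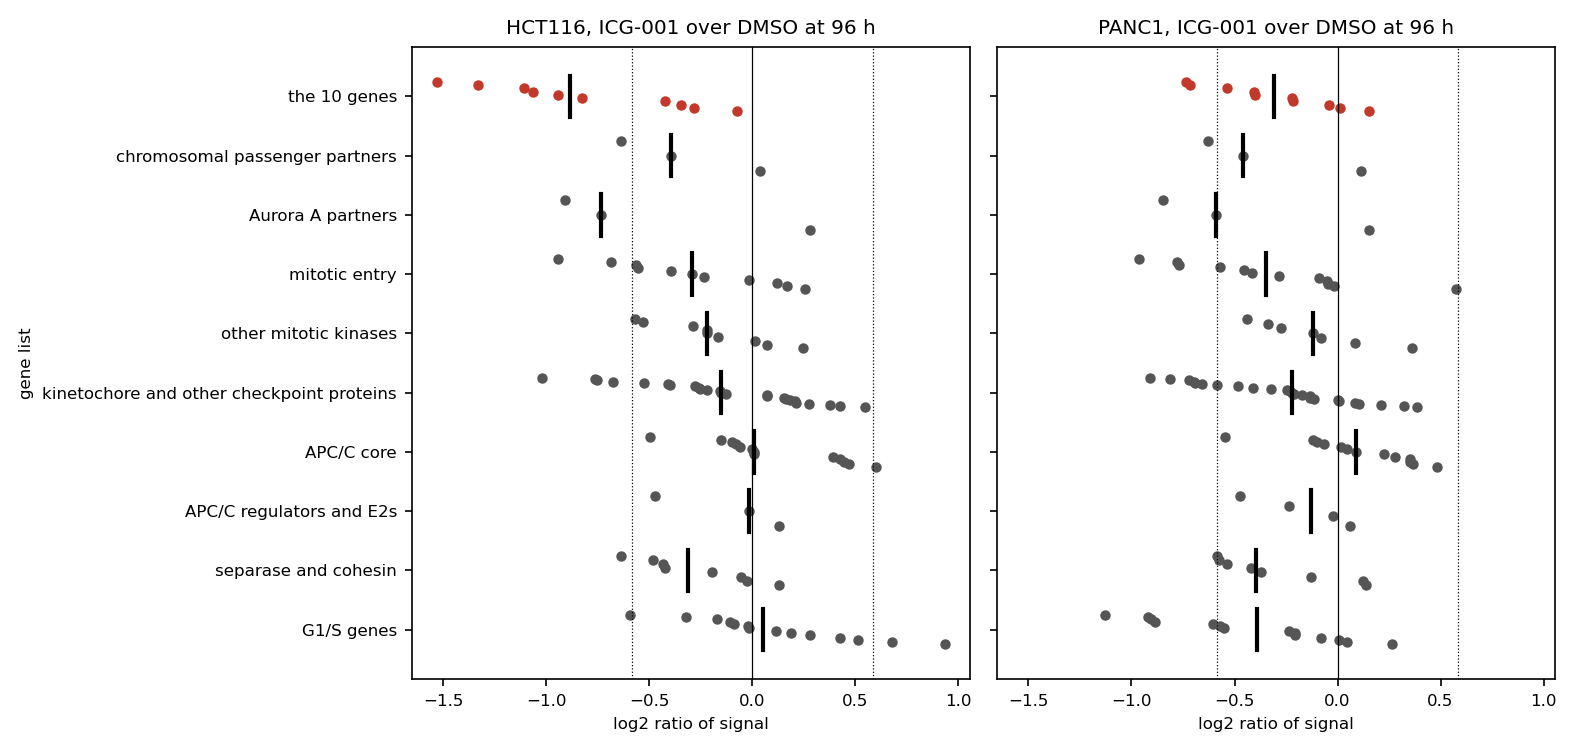
Log2 ratios of ICG-001 over DMSO at 96 h in HCT116 (left) and PANC1 (right), with 1 point per gene above the detection limit, the 10 mitotic genes in red and the other lists in grey; black bars are medians, dotted lines mark 1.5-fold, vertical spread within a list only separates the points, and no error is known. The 10 genes spread from -1.53 to -0.08 in HCT116 with a median of -0.88, whereas the APC/C core was centered near 0 in both lines.

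The likeness of the 10 profiles was described with Pearson's r over the 12 columns, each line centered on its own mean. Columns of a line share their normalization, so this is a description and no p-value is given. BUB1, TTK and AURKA were the most alike (r = 0.95 to 0.98), and PTTG1 and NEK2 had r = 0.94. PLK1 and CDC20 were more like each other (0.79) than like BUB1 (0.43 and 0.17). The 2 Aurora kinases, AURKA and AURKB, had r = 0.81. CDC20 and its target PTTG1 had r = 0.07, and MAD2L1 and BUB1B had 0.71. Against the median profile of the 10 genes, r ran from 0.98 for BUB1 to 0.26 for CDC20. Among 11517 genes above the limit in all columns, the 5 other genes most like that median were DLGAP5 (0.96) and KIF20A (0.96), both spindle proteins, the NDC80 subunit NUF2 (0.96), DEPDC1B (0.95) and SNX5 (0.94).

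**Figure D4:**
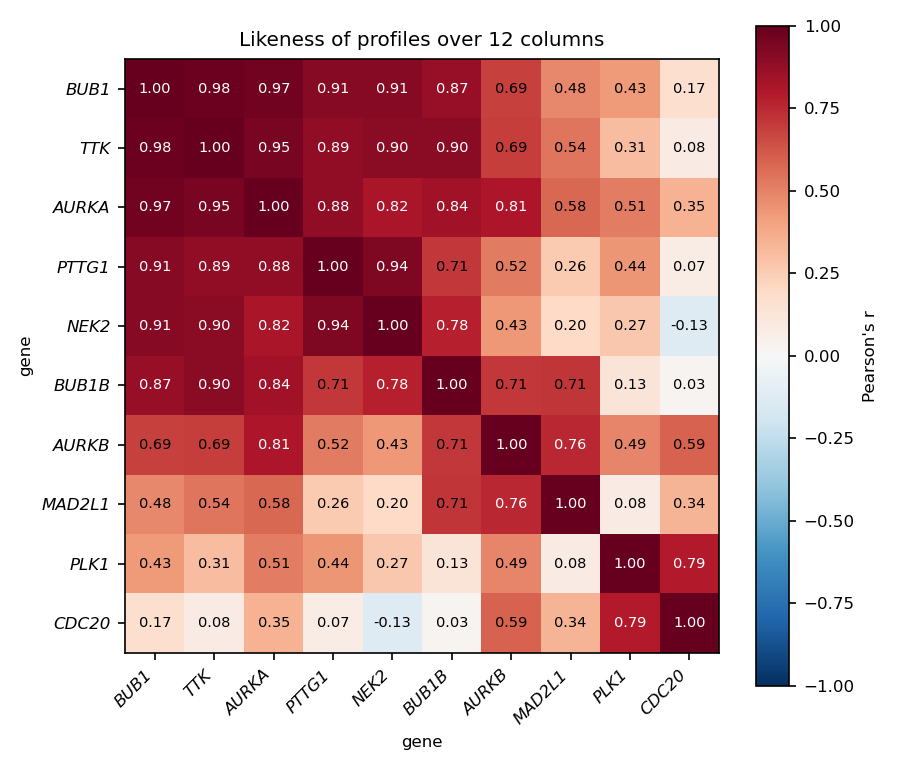
Pearson's r between the log2 profiles of each pair of the 10 genes over 12 columns, after centering each cell line on its mean (color from -1 to 1, values printed). BUB1, TTK, AURKA, PTTG1, NEK2 and BUB1B form a block with r of 0.71 to 0.98, and PLK1 and CDC20 form a pair with r = 0.79.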

How the data were processed

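The authors amplified and labeled total RNA, hybridized the product to Illumina HumanHT-12 v4 BeadChips, exported signal intensity on a linear scale from GenomeStudio (version not given in the sources used here) with quantile normalization and no background subtraction, and averaged replicates. The deposited table holds 1 intensity per gene name and column. The labels give 2 arrays behind 11 columns and 3 behind 1, and this number limits the precision. Groups came from the labels.

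Differences between columns were taken on the log2 scale (Python 3.11.15, numpy 2.4.6, pandas 2.3.3). For each column, the detection limit was set 2.33 SD over the mode of the log2 signals (SD from values below the mode). Comparisons used genes past the limit in either column, counted at 1.5-fold or more. The scripts were tested on simulated data. Alternatives were folds of 1.2 and 2, normexp background correction with quantile normalization (limma 3.58.1, R 4.3.3, offset 16), quantile normalization over 12 columns, centering, other limits and other DMSO columns.

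The 10 genes and all lists were chosen with earlier results of these data known. Named were the 10 genes, CDKN1A, fixed partners, the lowest and highest gene of each list at 96 h of ICG-001, and the 5 genes most like the median profile. PTTG3P, PTTG2, BORA and TOP2A were named outside this rule, and the counts of lowest and separated columns, and the shares of all genes beside the DMSO yardstick, were added, after values were seen. Promoter windows are from RefSeq (GRCh38.p14). A planned search for protein motifs was not run.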

Additional observations from a re-analysis of the deposited data

How the results depend on the processing

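With no replicate values, the alternatives could be compared only by the sizes, signs and counts that they gave. Centering each comparison on its median, leaving out the filter on dim genes and a limit at 5 SD moved no count. Counts of the 10 genes depended most on the fold required. At 1.2-fold, with ICG-001 in HCT116 at 12 h 6 were lower and 2 higher, in PANC1 5 were lower and 1 higher at 12 h and 5 lower at 96 h. With C646 at 1.2-fold, 3 were lower and 2 higher in HCT116 at 12 h and 2 higher at 96 h. In PANC1, 3 were lower and 2 higher at 12 h and 1 higher at 96 h. Comparing ICG-001 with C646 at 1.2-fold, 3 were lower in HCT116 at 12 h (15.1% of genes) and 10 at 96 h (14.5%). In PANC1, 4 were lower at 12 h (9.1%) and 7 at 96 h (14.3%). Over time in DMSO at 1.2-fold, 1 was lower and 2 higher in HCT116 and 4 lower in PANC1. With ICG-001 in HCT116 at 96 h, 9 rather than 6 were lower at 1.2-fold. In the comparisons with DMSO, 7.75% to 17.9% of all genes were at least 1.2-fold lower and 9.85% to 17.2% higher. Summed over the comparisons with DMSO, 31 values were at least 1.2-fold lower, over the comparisons of the 2 drugs 24, and over time in DMSO 5. At 2-fold these sums of lower values were 4, 3 and 0. The 4 values were those of AURKA, NEK2, BUB1 and TTK with ICG-001 in HCT116 at 96 h, the 3 were in HCT116 ICG-001 over C646 at 96 h, and the other counts that had been above 0 became 0. With normexp, 2 genes were higher at 12 h of C646 in HCT116, and 1 was lower at 12 h of ICG-001 in PANC1. In HCT116 with ICG-001, normexp also put BUB1B at 12 h (-0.65) and PLK1 at 96 h (-0.62) past 1.5-fold lower. Between the drugs, 3 and 2 were lower with ICG-001 than with C646 in HCT116 at 12 h and PANC1 at 96 h. The sum of lower values for the 2 drugs was 14. With quantile normalization over 12 columns, 0 genes were higher in HCT116 at 12 h of ICG-001, and 1 was lower in PANC1 with ICG-001 than with C646 at 12 h. Against the DMSO column of the other time, 1 gene was lower in HCT116 at 12 h of C646, and MAD2L1 was also lower at 96 h of ICG-001 (-0.85). In PANC1, 5 were lower at 96 h of ICG-001, 0 lower and 1 higher at 12 h of C646, and 1 lower at 96 h of C646. Of 80 ratios, 17 then changed sign, and 1 of these had been past 1.5-fold, BUB1B in PANC1 at 12 h of C646, at 0.034. Against the mean of both DMSO columns, 4 were lower in PANC1 at 96 h of ICG-001 and 0 at 12 h of C646. In HCT116 at 96 h of ICG-001, MAD2L1 was also past 1.5-fold lower against that mean (-0.595). Of the 5 genes most like the median profile, 0 were among the top 5 with the 6 HCT116 columns alone and 1 (KIF20A) with the 6 PANC1 columns, and the causes of these shifts were not tested. No paired analysis was possible because each group has 1 column of averaged values and no test was run. Signal over background limits PLK1 most, and differences in signal that is close to the limit could not be described.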
